A study of Mus musculus with 4 samples.

Results

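Cathepsin K, 7 other cathepsins and cystatin C were followed across the leukocytes of the mouse hindpaw. The 9 genes (Ctsk, Ctsb, Ctsd, Ctsl, Ctss, Ctsz, Ctsh, Ctsc and Cst3) were taken by symbol from the 32285 genes of the expression matrices, and each had at least 1 unique molecular identifier (UMI, a tag that marks 1 captured RNA molecule) in all 4 libraries. The set was chosen around Ctsk, whose level in macrophages of these libraries was already known, so differences between conditions are described and not tested. CD45+ cells were sorted from digested hindpaws of male Lepr db/db mice (DB, strain C57BLKS/J-Dock7m +/+ Leprdb), a model of obesity and diabetes through loss of leptin receptor signalling, and of their Lepr WT/WT littermates (WT), at 12 or 21 weeks of age (Young and Aged in the labels). The younger groups, 12-week-WT and 12-week-DB, and the older ones, 21-week-WT and 21-week-DB, were 1 droplet library each, made of cells pooled from 2–3 mice, so no group had a replicate and the spread between mice is unknown. Where 4 values follow each other without labels they are WT and DB at 12 weeks, then WT and DB at 21 weeks. The libraries were compared by genotype at each age and by age in each genotype, to see how leukocytes of the paw differ with diabetes and its duration.

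Cathepsins are proteases of endosomes and lysosomes, and several are also secreted. Most are cysteine proteases made as inactive precursors. Cathepsin K cuts fibrillar collagen and is best known from osteoclasts, cathepsins S and L process the invariant chain of MHC class II, cathepsin C activates serine proteases of granules, cathepsin H trims peptides from the amino end, and cathepsin D is an aspartic protease. Cystatin C, the product of Cst3, is a secreted inhibitor of cysteine cathepsins.

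The 4 libraries held 5998 to 9124 barcodes and 47851794 to 69626521 UMIs, and 5271 to 8707 barcodes were kept for having 200 or more genes and no more than 10% of UMIs from mitochondrial genes. Barcodes were put into cell types by marker genes, never by any of the 9 genes. The macrophage gate, which required C1q genes, held 1576 cells in WT and 1614 in DB at 12 weeks and 1489 in WT and 1338 in DB at 21 weeks, with median depths of 8708 to 10404 UMIs. Ptprc, which encodes CD45 and was not used by the gate, was detected in 80.6 to 90.2% of its cells. Between 22.2% and 39.3% of kept barcodes fell into no gate, the largest share in 21-week-DB. The 21-week libraries shared 146 barcode sequences, and 4 of them (WT) and 1 (DB) marked macrophages, and other pairs of libraries shared 5 to 38. Without all shared barcodes the log2 ratio of Ctsk between genotypes in macrophages was 1.01 at 12 weeks and 2.17 at 21 weeks, against 1.02 and 2.17 with them. The headers of the files name Cell Ranger 5.0.0 for the 12-week libraries and 6.0.0 for the 21-week libraries, so age and software version cannot be told apart.

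Ctsk (ENSMUSG00000028111, chr3:95499256-95509362, plus strand, GRCm38) and Ctss (ENSMUSG00000038642, chr3:95526786-95556403, plus strand) lie next to each other, with 17423 bases between them, but differed in how they were spread over cells. The 250 bases before the RefSeq start of each (GRCm38.p6; chr3:95498960-95499209 and chr3:95526536-95526785, plus strand) are shown for that reason. Those of Ctsc (ENSMUSG00000030560, chr7:88278085-88310888, plus strand; upstream bases chr7:88277835-88278084) are shown because Ctsc had the lowest log2 ratios of 21-week-DB to the libraries it was compared with. Capitals mark a match to the core of the motif of PU.1, a transcription factor of myeloid cells.
Ctsk: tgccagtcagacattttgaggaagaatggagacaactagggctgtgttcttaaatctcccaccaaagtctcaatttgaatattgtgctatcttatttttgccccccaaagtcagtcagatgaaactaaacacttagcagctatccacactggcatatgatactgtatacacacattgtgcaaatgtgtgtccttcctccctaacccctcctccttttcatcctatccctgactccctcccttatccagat
Ctss: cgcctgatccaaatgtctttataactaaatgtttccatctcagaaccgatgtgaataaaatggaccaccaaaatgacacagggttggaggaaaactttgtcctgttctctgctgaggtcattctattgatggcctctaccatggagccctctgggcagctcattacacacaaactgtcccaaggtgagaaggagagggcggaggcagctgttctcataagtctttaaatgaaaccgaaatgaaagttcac
Ctsc: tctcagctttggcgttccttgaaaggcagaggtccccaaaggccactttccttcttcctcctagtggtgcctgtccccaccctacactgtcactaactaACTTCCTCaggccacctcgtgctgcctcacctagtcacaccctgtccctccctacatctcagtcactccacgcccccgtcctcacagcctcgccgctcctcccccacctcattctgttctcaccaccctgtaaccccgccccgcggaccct
GAGGAAGT, the PU.1 core searched on both strands, was found in Ctsc, where it reads ACTTCCTC on the plus strand 151 to 144 bases before the start. It was present in 2.44% of 32851 promoters of the same length, and in 1 of the 7 genes of the set with a sequence in the table (Ctsb and Ctsh were not matched). CACGTG, the E-box at the centre of the lysosomal CLEAR element, was found at 2 places in Ctsd, 245 to 240 and 98 to 93 bases before the start. It was also found in Ctsl 236 to 231 bases before the start, against 6.02% of all promoters. These starts are those of RefSeq. The Ctsl window (chr13:64370521-64370770, minus strand) lay wholly inside the GENCODE span of the gene, chr13:64359337-64370890. Most of the Ctsd window (chr7:142387828-142388077, minus strand) lay inside its gene too, with the nearer match. The longer CLEAR palindrome, the same E-box with GT before and AC after it, was in 0 of the 7 windows and in 0.240% of all promoters. The AP-1 motif TGANTCA was in 0 of the 7 windows and in 6.75% of all promoters. These matches are runs of letters and say nothing of binding.

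Of the 9 genes in macrophages, 1 was at least 1.5-fold higher in DB at 12 weeks (Ctsk) and 3 were lower (Ctsb, Ctsd and Ctsc), where 1.46% and 3.95% of the 3215 genes that averaged 50 CPM or more (a gene's UMIs per 1000000 UMIs of the gate) passed the same limit. At 21 weeks 2 were higher (Ctsk and Ctsl) and 2 lower (Ctsb and Ctsc), against 6.41% and 7.06% of all genes. Because Ctsk was chosen on this contrast and the set has few members, nothing is read from these shares. The median log2 ratio of the 9 genes was -0.09 at 12 weeks and -0.03 at 21 weeks, and that of all genes was 0.03 and 0.01. The sum of the 9 genes was 10806 CPM in WT and 8400 in DB at 12 weeks and 8960 in WT and 8778 in DB at 21 weeks, so the set as a whole was not higher in DB while its makeup differed.

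Ctsk stood at 132 CPM in WT and 269 in DB at 12 weeks and 105 in WT and 473 in DB at 21 weeks. Both DB libraries lay above both WT libraries, and 21-week-DB was highest. The DB level was 2.03 times the WT level at 12 weeks (log2 ratio 1.02, 95% interval 0.95 to 1.10) and 4.50 times at 21 weeks (2.17, 2.09 to 2.25). No interval here covers the spread between mice. Those of levels and ratios cover the counting error of UMIs alone, not the spread between cells. From 12 to 21 weeks the log2 ratio was -0.33 in WT (-0.43 to -0.24) and 0.81 in DB (0.76 to 0.87). UMIs of this 3′ assay count molecules and need no scaling by length, so the genes can be ranked on the CPM scale. Ctsk was the lowest of the 9 genes in macrophages of 12-week-WT, with 1.23% of their sum, and the 6th highest in 21-week-DB, with 5.39%.

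**Figure D1:**
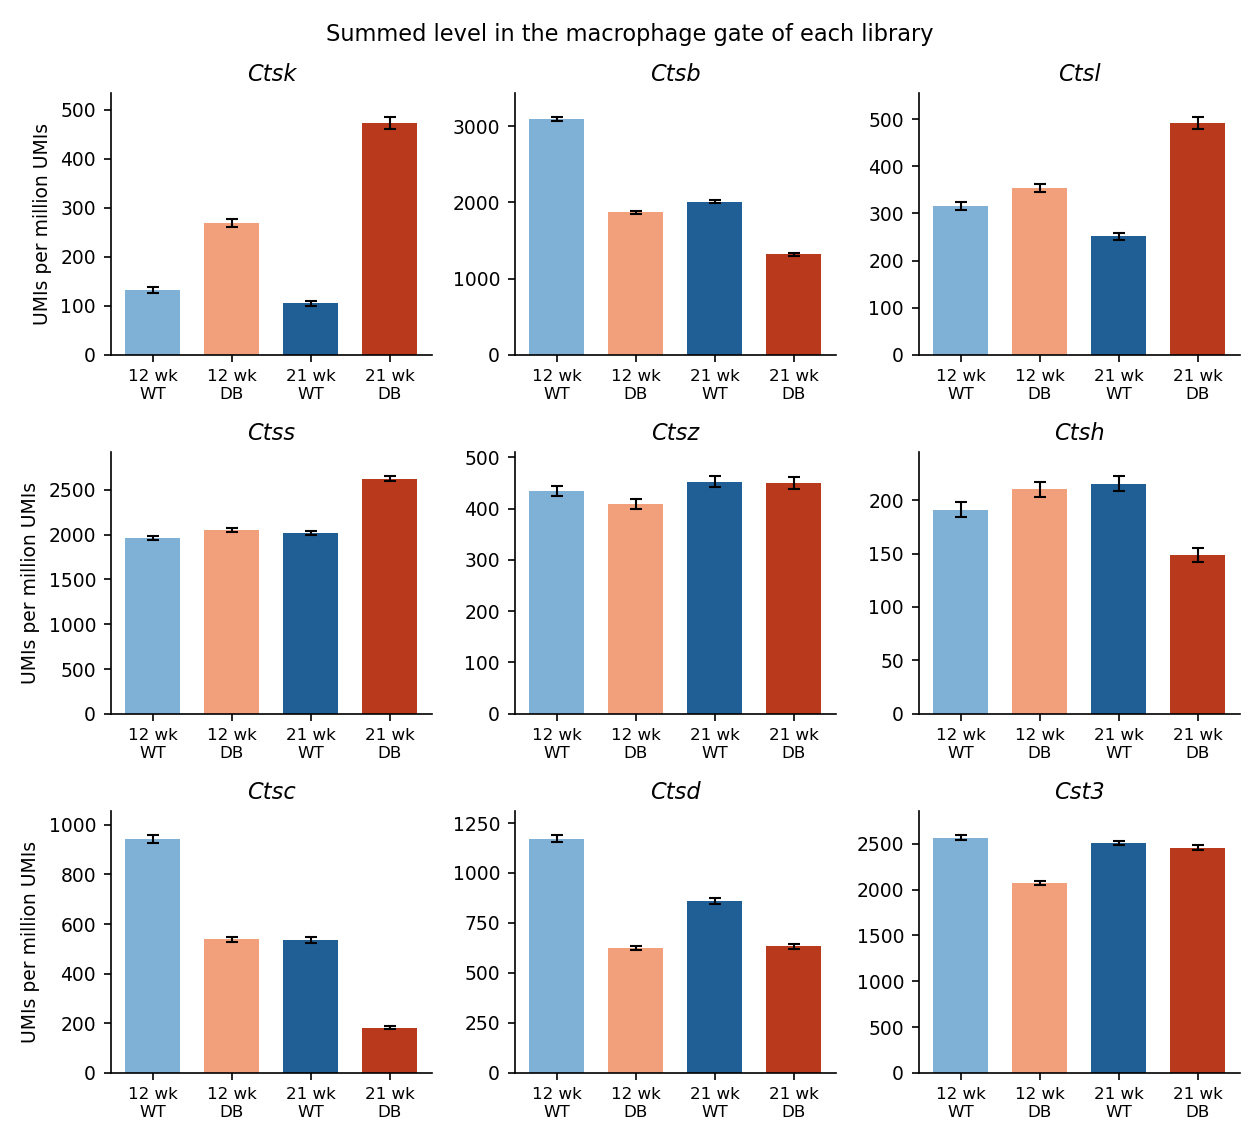
Bars give the level of each gene in the macrophage gate of each library, in CPM of the summed UMIs on a linear axis from 0, with exact Poisson 95% intervals. Ctsk is highest in 21-week-DB at 473 CPM and Ctsc lowest there at 182 CPM, while Ctsz lies between 408 and 453 CPM.

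Ctsk was concentrated in few macrophages. At least 1 UMI was found in 13.7% (WT) and 19.8% (DB) of macrophages at 12 weeks and in 12.2% (WT) and 28.2% (DB) at 21 weeks. T cells, which should lack Ctsk and so show the level of free RNA, had a UMI in 3.52%, 2.86%, 1.16% and 2.37% of cells in the same order, at median depths of 5408 to 6727 UMIs. After thinning all cells to 2000 UMIs the shares became 8.33%, 12.9%, 7.22% and 20.8% of macrophages and 0.323 to 1.50% of T cells. The order of the 4 libraries was the same with and without thinning, and each macrophage share lay above the T cell share of its library.

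Macrophages with 5 or more Ctsk UMIs numbered 98 in WT and 172 in DB at 12 weeks and 98 in WT and 241 in DB at 21 weeks, which is 6.22%, 10.7%, 6.58% and 18.0% of the gate. They carried 92.0 to 96.1% of the Ctsk UMIs of macrophages, and 0 T cells had as many. The limit of 5 is a point on a range: 124, 214, 123 and 296 macrophages had at least 2 UMIs, and 70, 145, 67 and 187 had at least 10. The richest cell of each library held 87, 163, 73 and 229 Ctsk UMIs. Within the cells of 5 or more UMIs the level was 1661, 1889, 1227 and 2211 CPM, so both the share of such cells and their level were higher in DB than in WT of the same age.

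**Figure D2:**
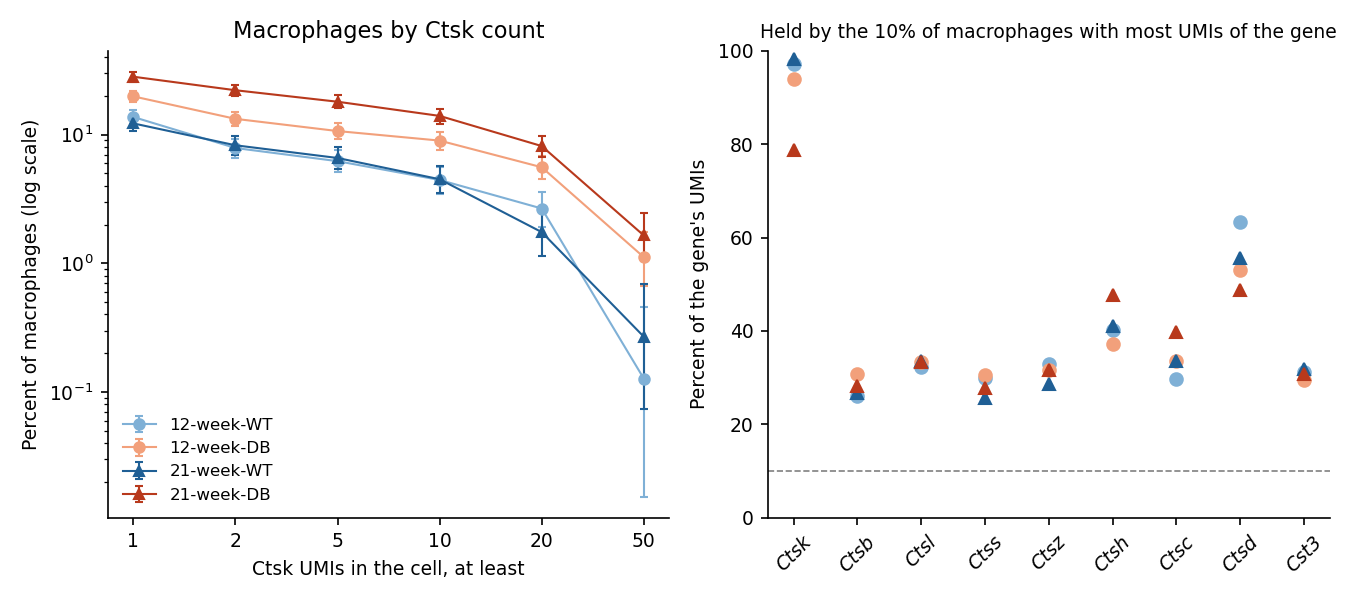
Left, the share of macrophages (log scale, percent) that held at least 1, 2, 5, 10, 20 or 50 Ctsk UMIs, with exact binomial 95% intervals, by library. Right, the percent of each gene's macrophage UMIs held by the 10% of macrophages richest in it, with a dashed line at an even spread; Ctsk reaches 78.7 to 98.1% and Ctsd 48.9 to 63.3%.

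The spread of Ctsk over cells differed from that of its neighbour Ctss. The 10% of macrophages richest in Ctsk held 97.1% (WT) and 94.0% (DB) of its UMIs at 12 weeks and 98.1% (WT) and 78.7% (DB) at 21 weeks. For Ctss that share was 25.6 to 30.5%, and Ctss was detected in 98.9 to 99.6% of macrophages and 14.6 to 23.5% of T cells. Ctsd came between them at 48.9 to 63.3%, and the other 6 genes lay between 26.1 and 47.6%. A share of this kind is larger for genes of low level, and Ctsh, at 148 to 215 CPM in the range of Ctsk, had 37.2 to 47.6%.

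The cells with 5 or more Ctsk UMIs were mostly Lyve1+ cells with little MHC class II. Lyve1, a hyaluronan receptor of tissue-resident macrophages, and H2-Ab1, a chain of MHC class II, split the gate into 4 subsets. Of the macrophages with 5 or more Ctsk UMIs, 75.5%, 75.6%, 64.3% and 80.1% were Lyve1+ MHCIIlo, a subset that held 57.0%, 52.0%, 45.5% and 67.9% of all macrophages in the same order of libraries. Inside Lyve1+ MHCIIlo cells 8.23%, 15.5%, 9.29% and 21.3% had 5 or more Ctsk UMIs, and inside Lyve1- MHCIIhi cells 1.52%, 3.91%, 1.10% and 8.06%. The first share was higher than the second in each library, and within both subsets each DB share lay above the WT share of its age. The Lyve1- MHCIIhi shares rest on 5, 14, 5 and 10 cells. Lyve1- MHCIIlo cells had shares of 7.59%, 8.80%, 5.81% and 12.1%, and Lyve1+ MHCIIhi cells 3.68%, 4.48%, 9.26% and 18.8%. The Lyve1+ MHCIIlo share was therefore the highest in each library, but by a small step in both WT libraries.

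The Ctsk level was higher in DB in each of these subsets, with 1 ratio whose interval held 0. Lyve1+ MHCIIlo macrophages stood at 171 CPM in WT and 350.2 in DB at 12 weeks and 141 in WT and 533 in DB at 21 weeks. Lyve1- MHCIIhi macrophages stood at 42.2, 92.4, 32.3 and 311 CPM. Lyve1- MHCIIlo macrophages stood at 151, 378, 116 and 301 CPM, above Lyve1+ MHCIIlo in 12-week-DB. At 12 weeks the log2 ratio of DB to WT was 0.30 to 1.32 over the 4 subsets, with the interval of the Lyve1+ MHCIIhi subset holding 0. At 21 weeks it was 1.37 to 3.27, above 0 in all 4. The highest, in Lyve1- MHCIIhi cells, rests on 20 cells with a Ctsk UMI in DB and 32 in WT. Of these, 10 and 5 had 5 or more. The Lyve1+ MHCIIhi subset had only 16 cells in 21-week-DB, and 3 of them held all of its 81 Ctsk UMIs. The share of its cells with a Ctsk UMI was 17.0% in WT and 18.8% in DB at 21 weeks, so its ratio rests on very few cells. The makeup of the gate moved with the comparison: MHCIIhi cells were 32.9% (WT) and 34.6% (DB) of macrophages at 12 weeks and 48.7% (WT) and 10.5% (DB) at 21 weeks. With the subsets weighted as in 12-week-WT the log2 ratio of Ctsk was 1.04 at 12 weeks and 2.01 at 21 weeks.

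**Figure D3:**
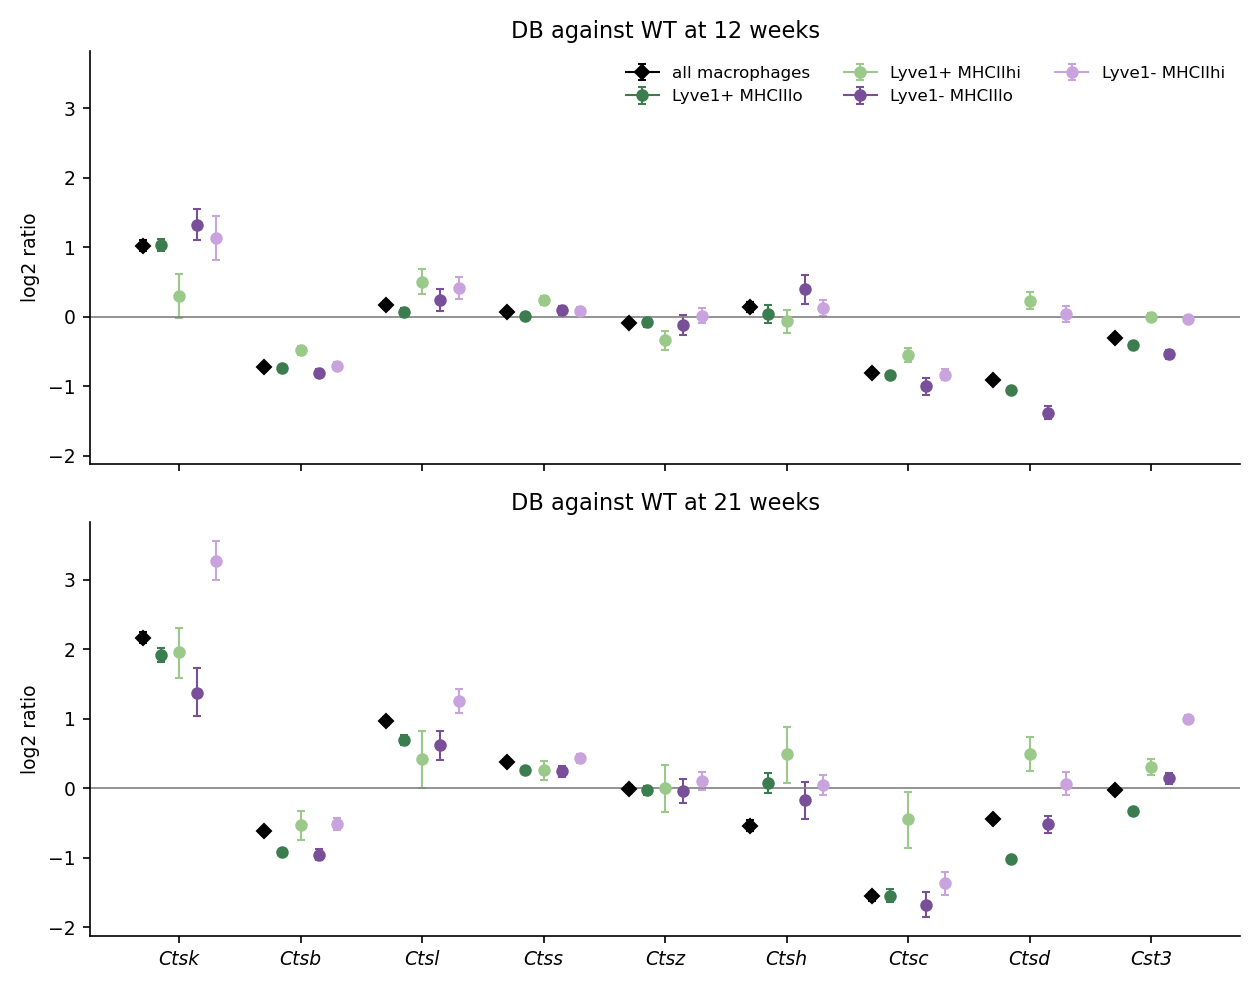
Log2 ratio of DB to WT at 12 weeks (top) and 21 weeks (bottom) for each gene, in all macrophages (black diamonds) and in 4 subsets by Lyve1 and MHC class II (circles), with exact 95% counting intervals. Ctsk lies above 0 and Ctsb and Ctsc below 0 in each subset at both ages, and Ctsh at 21 weeks is below 0 in all macrophages at -0.54 but between -0.17 and 0.49 in the subsets.

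Other genes of the macrophages with 5 or more Ctsk UMIs were set against those of macrophages with none, as a description, since the split was chosen after the values were seen. The former were deeper, with medians of 9763 to 13067.5 UMIs against 8543 to 10190. Of 3215 genes, 1 was at least 1.5-fold higher in all 4 libraries and 19 were at least 1.5-fold lower. The former was Aqp1, a water channel, at 1350, 1547, 1257 and 996 CPM against 658, 966, 606 and 532 CPM. Among the latter were Ccr2, the chemokine receptor of monocytes, and the MHC class II genes H2-Aa and H2-Ab1, with H2-Aa at 945, 535, 2000.2 and 121 CPM against 2689, 2113, 3704 and 735 CPM. Ctsh was also among them, at 94.2, 130, 113 and 97.7 CPM against 201, 223, 223 and 170 CPM. Ctsc was lower in all 4 libraries by a smaller step, with log2 ratios of -0.83 to -0.17.

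Ctsk outside the macrophage gate was mostly in barcodes of no gate. The macrophage gate held 72.5%, 66.8%, 74.5% and 68.1% of all Ctsk UMIs in WT and DB at 12 weeks and in WT and DB at 21 weeks, and barcodes in no gate held 21.5%, 29.2%, 17.7% and 27.9%. Their level was 63.3, 119, 30.5 and 124 CPM, again higher in DB at both ages. Of these barcodes 8, 36, 17 and 77 had 5 or more Ctsk UMIs and carried 82.7 to 95.1% of the Ctsk UMIs outside gates. Pf4, a marker of the macrophage list, was detected in 76.5 to 90.9% of them. C1qa was detected in 50 to 61.0% and C1qb in 29.4 to 64.9%. Their Pf4 level was 706 to 3008 CPM, against 2223 to 3965 CPM in the macrophage gate. Apoe stood at 31.3 to 803 CPM, against 2740 to 12528 CPM in that gate. What these barcodes are was not tested. Col1a1, a collagen gene of fibroblasts, was detected in 0 to 2.78% of them. Col1a1 was low even in the fibroblast-like gate of 21-week-DB, at 334 CPM against 4773 to 11218 CPM in the other libraries. The summed C1q level of the ungated barcodes with 5 or more Ctsk UMIs was 358 to 627 CPM. It was 6628 to 8542 CPM in the macrophage gate, and theirs lay below what the gate required.

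The fibroblast-like gate was the only other one with Ctsk at the level of macrophages. It held 15 to 31 barcodes per library, which had passed the CD45 sort, and stood at 319 CPM in WT and 255 in DB at 12 weeks and 390 in WT and 252 in DB at 21 weeks. Its median of 287 CPM over the libraries was the highest of 10 gates, but its range overlapped that of macrophages, 105 to 473 CPM. The other 8 gates had medians of 0 to 6.95 CPM and ranges that overlapped one another, all below the lowest macrophage value. Monocytes had 3.11, 7.61, 9.84 and 0 CPM, where 0 was read in 49 cells. Col1a1 in the macrophage gate was 6.46, 0.856, 1.72 and 0.0776 CPM, lower in DB at both ages. In the fibroblast-like gate itself Col1a1 was 11218, 4773, 4799 and 334 CPM, while Dcn was 20987, 14161, 21469 and 15130 CPM. A low Col1a1 therefore says little of fibroblast RNA in 21-week-DB.

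Of the 8 fibroblast markers listed, only Sparc passed 50 CPM in macrophages, and the sum of all 8 was 211 CPM in WT and 79.0 in DB at 12 weeks and 281 in WT and 106 in DB at 21 weeks. The 9 osteoclast markers summed to 191, 177, 143 and 227 CPM. Among them Acp5, the tartrate-resistant acid phosphatase, stood at 18.6, 23.7, 35.1 and 146 CPM in macrophages, with a log2 ratio of DB to WT of 0.35 at 12 weeks and 2.05 at 21 weeks. Acp5 in T cells was 23.7, 24.5, 28.5 and 48.8 CPM. Without Acp5 the osteoclast markers summed to 172, 153, 108 and 81.0 CPM in macrophages, lower in DB at both ages, and most of that was Tnfrsf11a, which encodes the receptor RANK. Calcr, the calcitonin receptor of osteoclasts, had 0 UMIs in macrophages of all 4 libraries. The gate required C1q genes, so cells low in C1q lay outside it whatever else they expressed. Osteoclast markers are not given here for the barcodes in no gate, which also held Ctsk. The part of other cell types in the Ctsk ratios was not tested beyond these values.

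Ctsb, a cysteine cathepsin that cuts from the carboxyl end as well as inside chains (ENSMUSG00000021939, chr14:63122462-63145923, plus strand), was the highest of the set in WT at 12 weeks. It stood at 3087 CPM in WT and 1869 in DB at 12 weeks and 2009 in WT and 1317 in DB at 21 weeks. The log2 ratio of DB to WT was -0.72 at 12 weeks and -0.61 at 21 weeks, and the log2 ratio of 21 to 12 weeks was -0.62 in WT and -0.50 in DB. Ctsb was lower in all 4 subsets in each of these 4 comparisons. Fdft1 overlaps Ctsb on the opposite strand and is in the files, as are Gm47123 for Ctsl and Nelfcd for Ctsz; reads of such pairs can be told apart only if the counting used the strand, which is not stated here.

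Ctsl, which also acts on the invariant chain (ENSMUSG00000021477, chr13:64359337-64370890, minus strand), was higher in DB at both ages. Its levels were 315 CPM in WT and 354 in DB at 12 weeks and 251 in WT and 492 in DB at 21 weeks. The log2 ratio of DB to WT was 0.17 at 12 weeks and 0.97 at 21 weeks, where it lay above 0 in all 4 subsets at 0.43 to 1.26. From 12 to 21 weeks the log2 ratio was -0.33 in WT and 0.47 in DB, the same pair of directions as for Ctsk. At least 1 UMI was found in 79.8 to 90.4% of macrophages and 9.51 to 17.2% of T cells, so unlike Ctsk it was not found in few cells only.

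Ctss was higher in DB by a small step at 12 weeks and a larger one at 21 weeks. It stood at 1961 CPM in WT and 2057 in DB at 12 weeks and 2021 in WT and 2625 in DB at 21 weeks. The other 3 libraries lay close together, and 21-week-DB was above them. The log2 ratio of DB to WT was 0.07 at 12 weeks, and at 21 weeks it was 0.38, and 0.24 to 0.43 over the 4 subsets. In 21-week-DB Ctss was the highest of the 9 genes.

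Ctsz, also called cathepsin X, a carboxypeptidase (ENSMUSG00000016256, chr2:174427493-174439039, minus strand), had the narrowest range. Its levels were 434 CPM in WT and 408 in DB at 12 weeks and 453 in WT and 450.4 in DB at 21 weeks. The log2 ratios of DB to WT were -0.09 and -0.01, and the intervals of all 4 subsets held 0 at 21 weeks.

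Ctsh (ENSMUSG00000032359, chr9:90054152-90076089, plus strand) was lower in macrophages of 21-week-DB than in those of 21-week-WT, but not inside any subset. It stood at 191 CPM in WT and 210.2 in DB at 12 weeks and 215 in WT and 148 in DB at 21 weeks, with a log2 ratio of DB to WT of 0.14 at 12 weeks and -0.54 at 21 weeks. Within the 4 subsets the log2 ratio at 21 weeks was -0.17 to 0.49, with 3 intervals that held 0 and 1 above 0. From 12 to 21 weeks in DB the log2 ratio was -0.50 in all macrophages, and inside the subsets it was -0.25 in Lyve1+ MHCIIlo and -0.37 in Lyve1- MHCIIlo cells, with intervals below 0, while the other 2 intervals held 0. Ctsh went with both MHC class II and Lyve1. It was 376, 411, 421 and 436 CPM in Lyve1- MHCIIhi cells against 112, 115, 91.8 and 96.6 CPM in Lyve1+ MHCIIlo cells. Between these lay Lyve1+ MHCIIhi cells at 283, 270, 224 and 316 CPM and Lyve1- MHCIIlo cells at 201, 264, 230 and 204 CPM. In each library Ctsh was higher in MHCIIhi than in MHCIIlo cells of the same Lyve1 state. It was also higher in Lyve1- than in Lyve1+ cells of the same MHC class II state. With subsets weighted as in 12-week-WT the log2 ratio at 21 weeks was 0.10, the opposite sign.

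Ctsc was lower in DB at both ages and lower at 21 weeks in both genotypes. Its levels were 943 CPM in WT and 538 in DB at 12 weeks and 536 in WT and 182 in DB at 21 weeks. The younger DB and the older WT library did not differ beyond their intervals, 528 to 549 and 525 to 547 CPM. The log2 ratio of DB to WT was -0.81 at 12 weeks and -1.56 at 21 weeks, and that of 21 to 12 weeks was -0.82 in WT and -1.56 in DB. It was below 0 in all 4 subsets in each of these comparisons. The share of macrophages with a Ctsc UMI was 94.9%, 89.2%, 88.4% and 67.3%, against 24.6 to 39.5% of T cells.

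Ctsd, the aspartic protease (ENSMUSG00000007891, chr7:142375911-142388038, minus strand), was lower in DB, with a difference that lay in the MHCIIlo subsets. It stood at 1171 CPM in WT and 625 in DB at 12 weeks and 860.1 in WT and 633 in DB at 21 weeks, a log2 ratio of DB to WT of -0.91 at 12 weeks and -0.44 at 21 weeks. In Lyve1+ MHCIIlo macrophages it was 1477, 709, 1293 and 636 CPM, and in Lyve1- MHCIIhi macrophages 382, 393, 304 and 318 CPM. At both ages 2 subsets were lower, 1 was higher and the interval of 1 held 0. Ctsd was also higher in macrophages with Vsig4, a complement receptor, at 2155, 1110, 1394 and 871 CPM against 733, 474, 519.8 and 431 CPM without it.

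Cst3, the inhibitor (ENSMUSG00000027447, chr2:148871722-148875692, minus strand), was among the 3 highest of the set in macrophages. Its levels were 2569.9 CPM in WT and 2069.8 in DB at 12 weeks and 2509 in WT and 2457 in DB at 21 weeks. The log2 ratio of DB to WT was -0.31 at 12 weeks and -0.03 at 21 weeks. In Lyve1- MHCIIhi macrophages of 21-week-DB Cst3 stood at 3624 CPM, against 1810 to 1956 CPM in the other 3 libraries. In Lyve1+ MHCIIlo cells it was 2801, 2123, 2808 and 2247 CPM, lower in DB at both ages.

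By age, 0 of the 9 genes were at least 1.5-fold higher and 2 were lower (Ctsb and Ctsc) in macrophages of 21-week-WT against 12-week-WT, where 1.37% and 4.54% of 3215 genes passed. In DB 1 was higher (Ctsk) and 1 lower (Ctsc), against 6% and 12.4% of all genes. Weighted by the subsets of 12-week-WT, 1 gene passed in WT rather than 2. In cDC2, the conventional dendritic cells that present antigen to helper T cells, 7 of the 9 genes reached 50 CPM and 0 of them passed 1.5-fold in any of the 4 comparisons, where 2.51%, 13.1%, 7.46% and 21.4% of 2827 genes did. The exceptions below that level were Ctsk and Ctsl. Ctsk in cDC2 was 2.86 CPM in WT and 13.5 in DB at 12 weeks and 3.63 in WT and 5.06 in DB at 21 weeks. Its log2 ratio of DB to WT was 2.24 (1.64 to 2.89) at 12 weeks, and the interval held 0 at 21 weeks. From 12 to 21 weeks in DB it was -1.42 (-2.21 to -0.71), unlike in macrophages. Both ratios rest on few cells: 104 Ctsk UMIs lay in 30 cDC2 of 12-week-DB, against 29 UMIs in 25 cDC2 of 12-week-WT. The level of Ctsk in T cells was 4.97, 4.41, 1.50 and 4.01 CPM. Ctsl in cDC2 was 30.1 CPM in WT and 41.6 in DB at 12 weeks and 27.5 in WT and 60.1 in DB at 21 weeks, higher in DB at both ages. T cells, taken as the level of free RNA, had Ctsl at 25.6, 39.4, 18.2 and 41.1 CPM. Those levels were also higher in DB at both ages. Median depth was 5408 to 6727 UMIs in T cells and 12462 to 13926.5 in cDC2, so equal CPM would mean unlike counts per cell. The part of free RNA in the cDC2 values was not tested.

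Cell types can be compared with a test, because each library gave a sum for every gate, so that the 4 libraries formed 4 pairs. Sums were tested by edgeR's quasi-likelihood method, blocked by library, with Benjamini-Hochberg adjustment over all genes. The libraries differ in genotype and age, so the test asks whether a difference between cell types is common to all 4. Levels by cell type were part of what was known of these data, so Ctsk, around which the set was chosen, is described here without a test, and the tests of the other 8 genes are not independent of what was known.

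**Figure D4:**
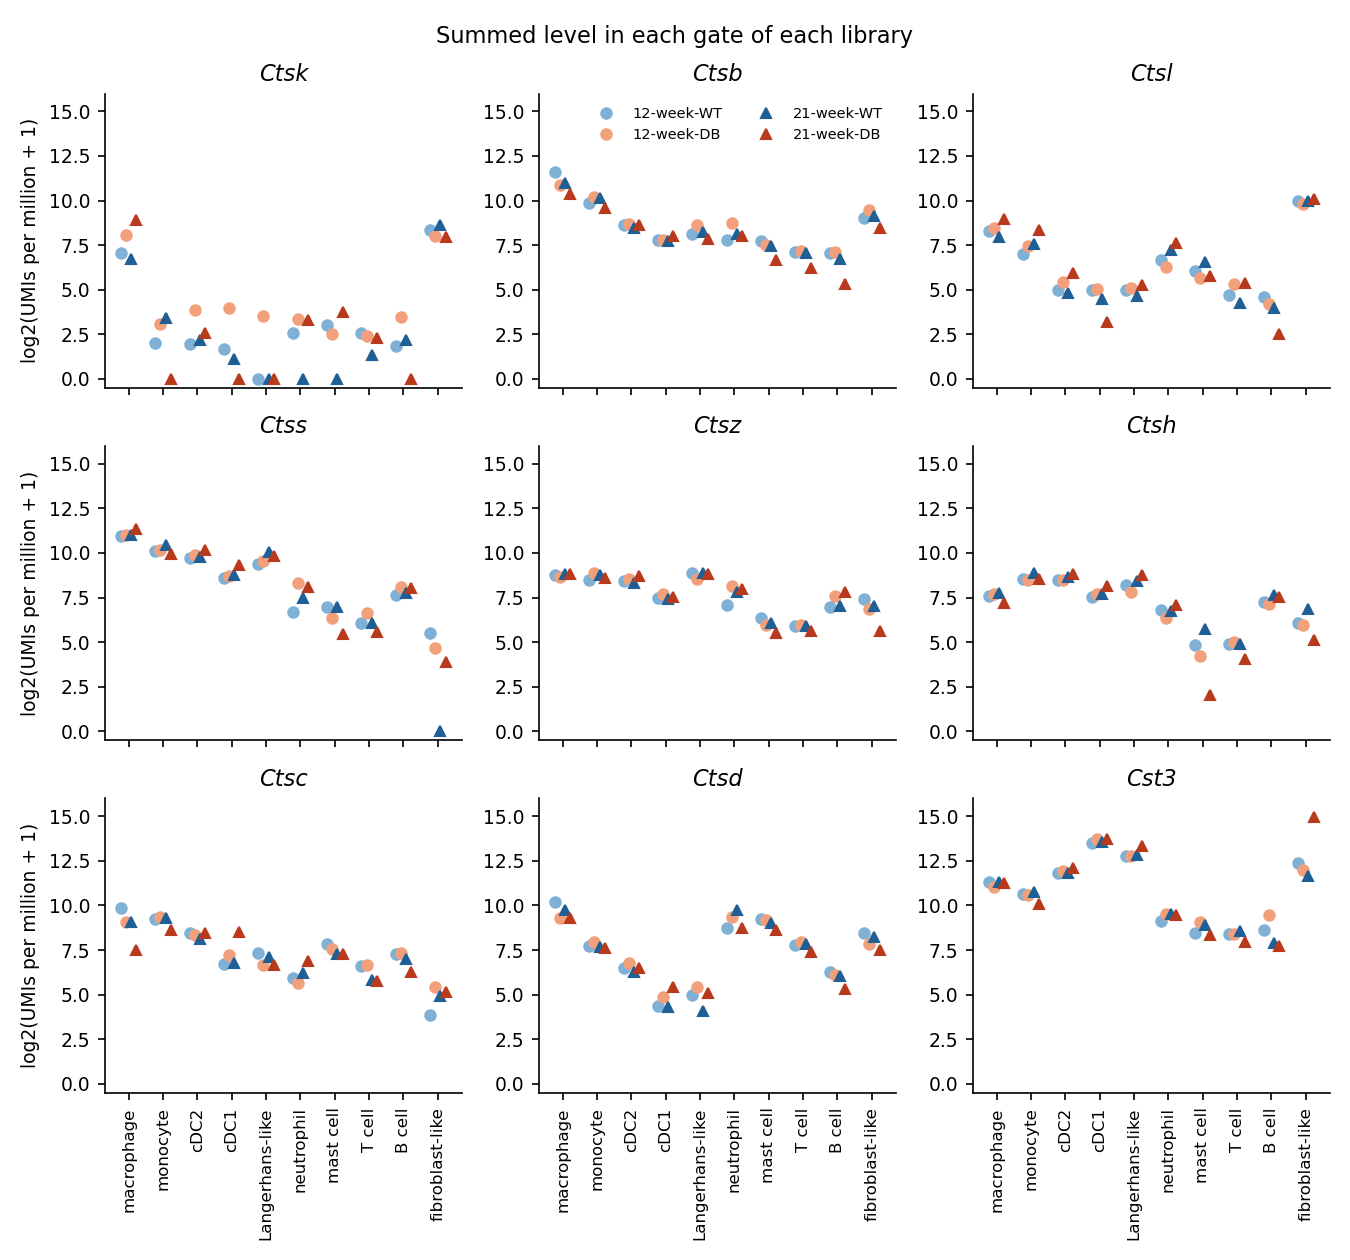
Level of each gene in 10 gates, as log2(CPM + 1) of the summed UMIs, with 1 point per library (circles 12 weeks, triangles 21 weeks, blue WT, red DB). Ctsk stands out in macrophages and fibroblast-like barcodes, and Cst3 is highest in cDC1 at 11559 to 13350 CPM apart from the fibroblast-like gate of 21-week-DB.

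Macrophages differed from cDC2 in 6 of these 8 genes, with 4 higher and 2 lower, where 25% of 13538 genes were higher and 24.6% lower. Ctsk stood at 105 to 473 CPM in macrophages and 2.86 to 13.5 CPM in cDC2, with log2 ratios of 4.31 to 6.55 over the libraries. Ctsl had a log2 fold change of 2.99 (SE 0.09, edgeR adjusted p = 2.65e-06), Ctsd at 2.96 (SE 0.21, edgeR adjusted p = 4.43e-05) and Ctsb at 2.17 (SE 0.20, edgeR adjusted p = 0.000138). All 4 libraries showed each of these directions. Ctss was also higher, by a ratio that hardly differed between libraries, 1.13 to 1.20 on the log2 scale (fitted 0.98, edgeR adjusted p = 2.15e-05).

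The genes lower in macrophages than in cDC2 were Ctsh and the inhibitor. Ctsh in cDC2 was 355 CPM in both 12-week libraries and 406 in WT and 457 in DB at 21 weeks, and its log2 fold change was -1.23 (SE 0.16, edgeR adjusted p = 0.000627). Cst3 in cDC2 was 3615, 3935, 3551 and 4326 CPM, and its log2 fold change was -0.87 (SE 0.10, edgeR adjusted p = 0.000306). MHC class II genes were used to gate cDC2, which moves with Ctsh. Ctsz at 0.08 (edgeR adjusted p = 0.510) and Ctsc at 0.39 (edgeR adjusted p = 0.402) did not pass. Ctsc was higher in macrophages of 3 libraries and lower in 21-week-DB, and without 21-week-DB it passed at 0.87 (edgeR adjusted p = 0.00139).

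Lyve1+ and Lyve1- macrophages differed in 4 of the 8 genes tested, with 1 higher and 3 lower, where 12.8% of 12433 genes were higher and 12.8% lower. Ctsk was 153 CPM in Lyve1+ and 78.4 in Lyve1- macrophages of WT at 12 weeks and 302 and 197 CPM in those of DB. At 21 weeks it was 133 against 43.3 CPM in WT and 532 against 304 CPM in DB. It was higher in Lyve1+ cells of all 4 libraries, with log2 ratios of 0.62 to 1.62. Ctsh was lower in all 4, with a log2 fold change of -1.47 (SE 0.08, edgeR adjusted p = 7.42e-06). Ctsc at -0.55 (SE 0.12, edgeR adjusted p = 0.00816) and Ctsz at -0.26 (SE 0.06, edgeR adjusted p = 0.00971) were lower too.

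Ctsd passed at 0.53 (SE 0.16, edgeR adjusted p = 0.0424), but this call rested on the setting. Its log2 ratio was 0.59 in WT and 0.44 in DB at 12 weeks and 1.38 in WT and 0.06 in DB at 21 weeks, and without 21-week-WT it was 0.27 (edgeR adjusted p = 0.0928). Without 12-week-WT or 12-week-DB it did not pass either (edgeR adjusted p = 0.117 and 0.0939). Lyve1+ cells were deeper in each library, with median UMIs of 9321 to 11202 against 7538.5 to 9001. With cells thinned to 2000 UMIs Ctsd did not pass (edgeR adjusted p = 0.349). Ctsb and Ctsl passed only without 21-week-DB among the fits that left out 1 library (edgeR adjusted p = 0.0129 and 0.0303).

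Macrophages differed from the monocyte gate in 6 of the 8 genes tested, with 5 higher and 1 lower, where 20.5% of 12630 genes were higher and 16.7% lower. Cells of this gate came from digested paws, and the paper names its cluster with Plac8, Chil3 and Thbs1 monocyte-derived macrophages. The markers of the gate differed between libraries, with Plac8 at 3065, 1302, 2272 and 561 CPM and Chil3 at 189, 1875, 269 and 3345 CPM. Ctsk was at 0 to 9.84 CPM in monocytes, which numbered 49 to 220 cells, below each macrophage value. Ctsd was higher by 1.67 (SE 0.16, edgeR adjusted p = 1.07e-07) and Ctsb by 0.77 (SE 0.15, edgeR adjusted p = 0.000573). Ctss, Ctsl and Cst3 were higher by 0.65, 0.59 and 0.47 (edgeR adjusted p = 0.000805, 0.00484 and 0.00745), with Cst3 not passing without 21-week-DB (edgeR adjusted p = 0.0785). Ctsh was lower in all 4 libraries, with a log2 fold change of -1.29 (SE 0.14, edgeR adjusted p = 4.07e-07). Ctsc at -0.46 (edgeR adjusted p = 0.0695) passed when shared barcodes were left out (edgeR adjusted p = 0.0465) or without 12-week-WT (-0.77, edgeR adjusted p = 0.00114).

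**Figure D5:**
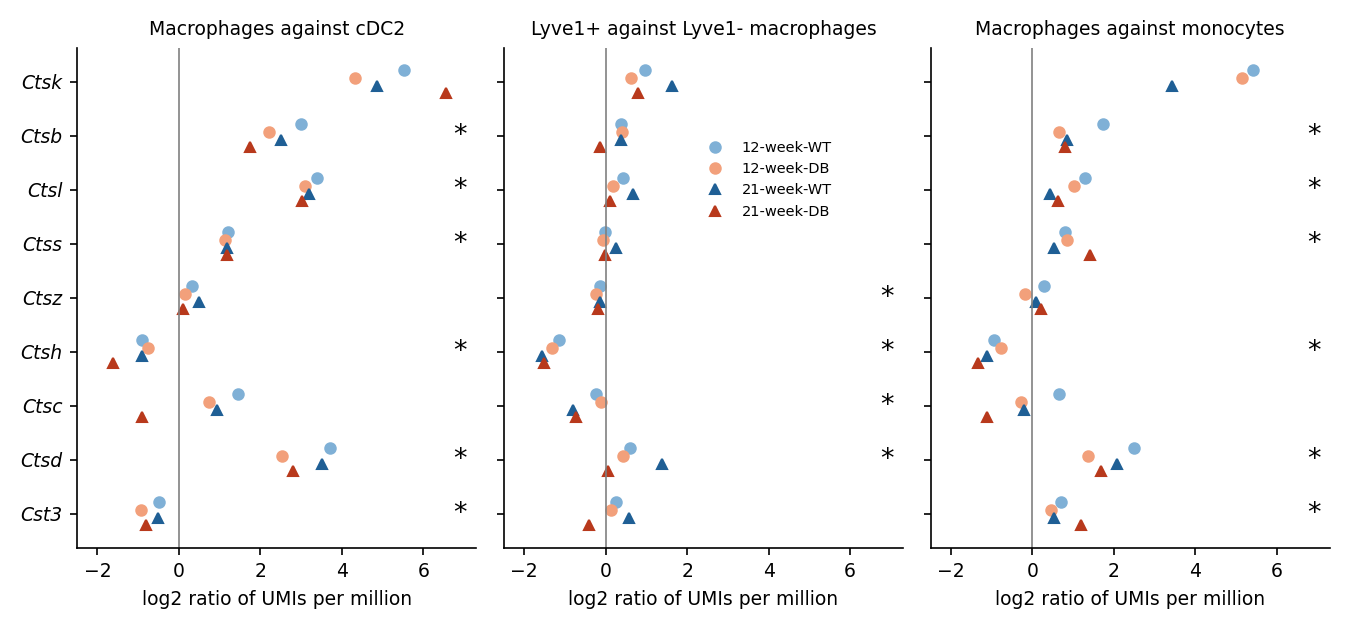
Log2 ratio of CPM between gates in each library for 3 comparisons, with a star where edgeR's adjusted p was under 0.05 (Ctsk is shown without a test). Ctsk is higher in macrophages in each library, and its ratio to monocytes in 21-week-DB, which had 0 UMIs there, is not drawn.

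Over the 10 gates the genes fell into different orders. Ctsb and Ctss were highest in macrophages, with ranges apart from the next gate, monocytes, and Ctsd had its highest median in macrophages at 625 to 1171 CPM, overlapping neutrophils at 429 to 868 CPM, which were above macrophages in 12-week-DB and 21-week-WT. Ctsl was highest in the fibroblast-like gate at 879 to 1098 CPM, apart from macrophages at 251 to 492 CPM. The highest medians of Ctsh were in cDC2 and monocytes, and those of Ctsz in Langerhans-like cells and macrophages, with ranges that overlapped. Ctsc had its highest median in monocytes at 396 to 653 CPM, overlapping macrophages at 182 to 943 CPM but not cDC2 at 281 to 347 CPM.

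Cst3 followed the dendritic cells. It was highest in cDC1, the dendritic cells that cross-present antigen, at 11559 to 13350 CPM with a median of 12638. Langerhans-like cells followed at 6896 to 10118 CPM, then cDC2 at 3551 to 4326 CPM, macrophages at 2069.8 to 2569.9 CPM and monocytes at 1080.3 to 1736 CPM. The ranges of cDC2, macrophages and monocytes did not overlap. The gates for cDC1 and Langerhans-like cells were small, with 9 to 200 and 8 to 32 cells. The fibroblast-like gate stood at 5303, 4039 and 3226 CPM in the other libraries and at 32108 CPM in 21-week-DB. There 1 of 21 barcodes held 31.6% of the Cst3 UMIs and 10 were over 10000 CPM. The markers of this gate also differed in 21-week-DB, with Col1a1 at 334 CPM against 4773 to 11218 CPM in the other libraries. Dcn there was 15130 CPM against 14161 to 21469 CPM, so the gate may not hold the same cells in each library.

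The 5 genes whose level went most closely with that of Ctsk over 28 sums of a gate in a library were Pf4, C1qb, Tmem37, Ltc4s and Lyve1, with Pearson r of 0.93, 0.89, 0.89, 0.88 and 0.87 on log2(CPM + 1). Pf4 and C1qb are markers of the macrophage gate and Lyve1 of its subsets. For Cst3 they were Atox1, Shtn1, Naaa, BC028528 and Tnni2 at 0.97, 0.95, 0.94, 0.94 and 0.93, and Naaa is a marker of the cDC1 gate. The sums of 1 library share their depth and 8307 genes were searched, so these are descriptions.

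The other genes of the pathway were taken from lists chosen with earlier results known. Of the 14 other cathepsins and inhibitors 3 reached 50 CPM in macrophages, Lgmn, Ctsa and Cstb, and 0 of them passed 1.5-fold between conditions. Lgmn, the legumain that activates cathepsins, stood at 1633 CPM in WT and 1146 in DB at 12 weeks and 1265 in WT and 907 in DB at 21 weeks, lower in DB at both ages like Ctsb. Against cDC2, 10 of the 14 could be tested, and 5 were higher and 4 lower in macrophages, where 25% and 24.6% of all genes were. Lgmn was higher by 3.32 and Ctsf by 2.92, and Cst7, a cystatin of leukocytes, was lower with a log2 fold change of -2.42. Ctsf was also higher in Lyve1+ macrophages, by 1.01 (edgeR adjusted p = 0.000282).

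The 30 lysosomal genes were mostly higher in macrophages than in cDC2, with 27 higher and 1 lower, where 25% and 24.6% of all genes were. Their median log2 fold change was 0.94 against 0.01 for all genes tested. Cd63, a membrane protein of late endosomes, was higher by 3.87 and Tpp1, a lysosomal peptidase, by 2.23, and Gla, the alpha-galactosidase, was lower with a log2 fold change of -0.41. Against monocytes 17 were higher and 4 lower, where 20.5% of all genes tested were higher and 16.7% lower. Between genotypes 24 reached 50 CPM in macrophages, and 0 were at least 1.5-fold higher in DB and 3 lower at 12 weeks, with 0 and 4 at 21 weeks, where 1.46% and 3.95% of all genes passed at 12 weeks and 6.41% and 7.06% at 21 weeks. Grn, the progranulin gene, was lower in DB at both ages, at 2094, 1306, 1188 and 749 CPM in WT and DB at 12 weeks and in WT and DB at 21 weeks. No listed lysosomal gene that reached 50 CPM followed Ctsk upward past 1.5-fold in these macrophages. Outside this list, Ctsl was 1.96 times as high in DB as in WT at 21 weeks. Acp5, listed with the osteoclast markers, stood at 35.1 CPM in WT and 146 in DB at that age.

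Of the 6 regulators, Mitf, a factor of lysosomal and osteoclast genes, was higher in macrophages than in cDC2 by 1.65 (edgeR adjusted p = 0.000317) and than in monocytes by 1.53, and Ciita, the activator of MHC class II genes, was lower than in cDC2 with a log2 fold change of -2.51. In all, 2 were higher and 1 lower in macrophages against cDC2, 0 and 2 in Lyve1+ against Lyve1- macrophages, and 2 and 1 against monocytes. The 7 osteoclast markers that could be tested gave 3 higher and 3 lower against cDC2, 0 and 3 in Lyve1+ macrophages and 3 and 1 against monocytes. Over all genes the shares called were 25% and 24.6%, 12.8% and 12.8%, and 20.5% and 16.7% in these 3 comparisons. Of the fibroblast markers Sparc was higher in macrophages in all 3 comparisons, and 2 others, Col1a1 and Dcn, were lower in Lyve1+ cells.

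The 10 early response and heat-shock genes, which respond to tissue digestion, moved with the gates and the libraries. They summed to 6623 CPM in WT and 4102 in DB at 12 weeks and 8000.1 in WT and 7967 in DB at 21 weeks. Between genotypes 8 of the 10 were at least 1.5-fold lower in DB at 12 weeks, against 3.95% of all genes, and 2 were higher at 21 weeks, against 6.41%. From 12 to 21 weeks in DB 9 of the 10 were at least 1.5-fold higher, against 6% of all genes, the comparison in which Ctsk, Ctsl and Cst3 had log2 ratios of 0.81, 0.47 and 0.25. All 10 were lower in Lyve1+ than in Lyve1- macrophages, against 12.8% of all genes, and there Ctsk was higher and Ctsh lower. In macrophages against monocytes 9 were lower, against 16.7% of all genes. Their part in the levels of the 9 genes was not tested.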

How the data were processed

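Single CD45+ cells of 4 libraries (10x Genomics 3′ v3 chemistry, 1 per group, pooled mice) were measured by RNA sequencing. The authors aligned reads to mm10 with Cell Ranger, and the deposited matrices hold UMI counts per gene and barcode, not normalized. The submitters' processing notes name Cell Ranger 5.0.0, and the file headers name 5.0.0 or 6.0.0. The authors' later removal of ambient RNA and doublets is not in these matrices, so free RNA remains in them. Macrophage median depth was 8708 to 10404 UMIs, and zeros allow up to 3 UMIs.

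Barcodes of 200 genes or more, and of no more than 10% mitochondrial UMIs, were gated on summed marker UMIs per 10000, at thresholds set after the marker distributions were seen: 16 for C1q genes, 8 for T cells, 16 for B cells, monocytes and fibroblasts, 64 for mast cells and neutrophils, 128 for MHC class II and 4 for Langerhans-like cells. Macrophages, T cells and the other gates needed at least 3 markers of their list (cDC2 2 of 5, with C1q under 8), and barcodes passing more than 1 gate were left out, which limits doublets. Scrublet's own threshold marked 0 to 2 barcodes per library and so had not worked. MHCIIhi and Lyve1+ used H2-Ab1 and at least 1 UMI of Lyve1. UMIs were summed per gate and library and divided by the gate's total. Intervals are exact (Poisson for levels, binomial for shares and ratios, 95%).

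Sums were compared between gates with edgeR 4.0.16 in R 4.3.3 (TMM, filterByExpr, quasi-likelihood F test, library as a block, adjusted p under 0.05). The SE is the log2 fold change over the square root of F. Ctsk was in the fit over all genes, but its p is not given. Libraries pair the sums because both gates of a pair come from the same pooled mice. DESeq2 1.42.0, RLE factors, other filters, thinned cells, doubled gate thresholds and leaving out each library were alternatives; leaving out shared barcodes was added after the data were seen. On simulated counts the test recovered 99%, 93% and 75% of genes changed 2-fold for macrophages against cDC2, Lyve1+ against Lyve1- and macrophages against monocytes, with 12, 5 and 10 false calls among 13586, 12480 and 12700 genes. Matrices were read with Python 3.11.15 and scanpy 1.11.5. Gene positions came from GENCODE on GRCm38 and promoters from RefSeq. Named genes were the 9 genes, the 5 most like Ctsk and Cst3 by Pearson r, and, for lists, genes with the largest changes or needed to read a count; some were singled out after their values were seen. The genes of the set and the lists were chosen with earlier results of these data known.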

Additional observations from a re-analysis of the deposited data

Results flagged for a closer look

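In macrophages 4 of the 9 genes had ratios of opposite sign in the 2 genotypes or ages, with counting intervals that did not hold 0. These differences were not tested, since each condition was 1 library, and age cannot be told apart from the Cell Ranger version. Ctsk had a log2 ratio of 21 to 12 weeks of -0.33 in WT and 0.81 in DB. Ctsl had -0.33 in WT and 0.47 in DB for the same ages. Ctsh had a log2 ratio of DB to WT of 0.14 at 12 weeks and -0.54 at 21 weeks, and a log2 ratio of 21 to 12 weeks of 0.17 in WT and -0.50 in DB. With the subsets weighted as in 12-week-WT the 4 values of Ctsh were 0.10, 0.10, -0.05 and -0.04, and MHCIIhi cells, in which Ctsh was high, were 32.9%, 34.6%, 48.7% and 10.5% of macrophages in WT and DB at 12 weeks and WT and DB at 21 weeks. Cst3 had a log2 ratio of 21 to 12 weeks of -0.034 in WT and 0.25 in DB.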

How the results depend on the processing

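Of 360 log2 ratios of the 9 genes between conditions in macrophages under 10 alternatives, 248 moved by less than their counting interval and 112 by more, and 0 ratios past 1.5-fold changed sign. For Ctsk the log2 ratio of DB to WT was 0.96 to 1.05 at 12 weeks and 2.01 to 2.28 at 21 weeks over these alternatives, and for Ctsc -0.95 to -0.78 and -1.90 to -1.37. With macrophage subsets weighted as in 12-week-WT, 1 gene rather than 2 passed 1.5-fold between ages in WT (Ctsb was -0.48), and Ctsh at 21 weeks was 0.10.

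Counts of calls here include Ctsk, which the report describes without a test. The set was chosen around Ctsk, so its calls carry no weight, and the counts serve only to compare settings. Calls against cDC2 numbered 7 or 8 of 9 under each alternative and when each library was left out, with Ctsc gained when cells were thinned (edgeR adjusted p = 0.0141). For Lyve1+ against Lyve1- macrophages there were 4 to 7 calls when each library was left out and 4 to 7 under the other alternatives, and Ctsd did not pass with DESeq2 (adjusted p = 0.197), doubled thresholds (edgeR adjusted p = 0.129) or at least 2 UMIs of Lyve1 (edgeR adjusted p = 0.0545). Without the replicate block (the library term) 1 call was left there, Ctsh; that fit puts the spread between conditions into the error. Against monocytes there were 6 to 8 calls when each library was left out, 7 or 8 under the other alternatives, and 5 without the block, where Ctsl and Cst3 did not pass. Without the block 7 genes passed against cDC2. No call changed sign. Depth limits the rare gates: monocytes numbered 49 and cDC1 9 in 21-week-DB. With 1 library per condition, neither the spread between mice nor any condition difference could be tested.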
